A study of Mus musculus with 2 samples.

Results

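The serpin family was described across medullary thymic epithelial cells (mTECs) of the mouse. Its members were the 64 of 55487 annotated genes whose symbol is Serpin, then a clade letter from a to i, then a number. Clade b held 28 of them, clade a 25, clade e 3, clades f and i 2 each, and clades c, d, g and h 1 each. A further 5 symbols that begin with Serpin and carry a pseudogene suffix lie outside that rule. In the GENCODE M21 annotation (GRCm38), 24 clade a genes lie in a cluster on chromosome 12 and Serpina7 lies on X, while clade b has a cluster of 12 genes on chromosome 1 and another of 16 on chromosome 13.

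Most serpins are suicide inhibitors of proteases: the protease cuts an exposed loop of the serpin, which then snaps into a new fold and traps the enzyme. Clade a members are mostly secreted plasma proteins of the liver, clade b members mostly work inside cells and guard leukocytes and skin against their own proteases, and the smaller clades include antithrombin, neuroserpin and the collagen chaperone Serpinh1. In the thymic medulla, serpins can be read as genes of other organs. Aire-expressing mTECs release many tissue genes in stray fashion, a few at a time per cell, and later mTECs take on mimetic states that resemble microfold cells of the gut, keratinocytes, tuft cells and others, in which a tissue gene is used across a whole class.

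The spermidine group was 2 hashed samples from 4-week-old female wild-type C57BL/6J mice injected in the peritoneum over 7 days with spermidine, a polyamine, dissolved in phosphate-buffered saline (PBS) and dosed at 15 mg/kg. The PBS group was 2 hashed samples from mice of the same kind given PBS alone. After removal of CD45+ cells on beads, sorted mTEChi and post-Aire mTEClo cells of all 4 samples were loaded together in 1 droplet run with 10x Genomics 3' v3 chemistry. Whether the replicates of a treatment are different mice is not stated in the labels. The p-values given here therefore cover only the spread among these 4 samples, and that spread may be technical.

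After filtering, spermidine replicates 1 and 2 held 1374 and 1007 cells, and PBS replicates 1 and 2 held 1335 and 993 cells, with median depths between 15736 and 17365 unique molecular identifiers (UMIs) per cell. The 4709 cells fell into 12 classes named from marker lists that hold no serpin, and 4504 of them were mTEC-like. All 11 microfold, all 13 keratinocyte, all 13 enterocyte or hepatocyte and all 12 neuroendocrine markers were over 2-fold higher in their cluster than in the other cells, but the 3 Aire-stage clusters had only 4 to 6 of 13 markers over 2-fold. The summed enterocyte or hepatocyte list was not limited to its own class, with samples from 8834 to 20385 CPM there, from 9140 to 13752 CPM in microfold-like cells and at 16293 CPM in neuroendocrine-like cells of spermidine replicate 2. The summed Aire-stage list was higher in myeloid-like cells (mean 40526 CPM) than in Aire-stage cells (36195 CPM). A class sum below is the UMIs of all cells of a class in a sample, and CPM is a gene's share of that sum on the counts-per-million scale. Because 3' UMI counts are not divided by length, levels are compared between classes within a gene. Classes were cut from the same cells, so class differences are given with their spread over 4 samples and with no test. Aire-stage cells made up 34.2% and 32.9% of the spermidine samples, against 19.6% and 27.7% of the PBS samples, and tuft-like cells 22.6% and 21.5% against 34.2% and 27.7%.

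All 64 serpins had at least 1 UMI. They took 183226 of 84744979 gene UMIs in assigned cells, or 0.216%, and clade b held 86.5% of these, most of it from Serpinb6a and Serpinb1a, which together held 62.2%. A mean of 50 CPM in some class with at least 20 cells in each sample was reached by 20 serpins. Of these, 6 were highest in enterocyte- or hepatocyte-like cells, 5 in keratinocyte-like cells, 3 in microfold-like cells, 3 in immature mTEC-like cells, 2 in Aire-stage cells and 1 in neuroendocrine-like cells. The highest class is always taken among the 8 classes of that size, which leaves out ciliated-, muscle-, thymocyte- and myeloid-like cells. In 11 of the 20 every sample of the highest class lay above every sample of the other classes of that size. No serpin reached its highest value at that level in tuft-like or transit-amplifying-like cells. The summed level of all serpins was 19596 CPM in microfold-like cells, 3610 in enterocyte- or hepatocyte-like cells, 2329 in keratinocyte-like cells and 2236 in Aire-stage cells. It was 391 ± 13.4 CPM in tuft-like cells and 575 ± 402 CPM in the 126 thymocyte-like cells left in the sort (SD, n = 4 each). The thymocyte-like samples ran from 176 to 1102 CPM, so these classes could not be put in order within their spread.

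**Figure D1:**
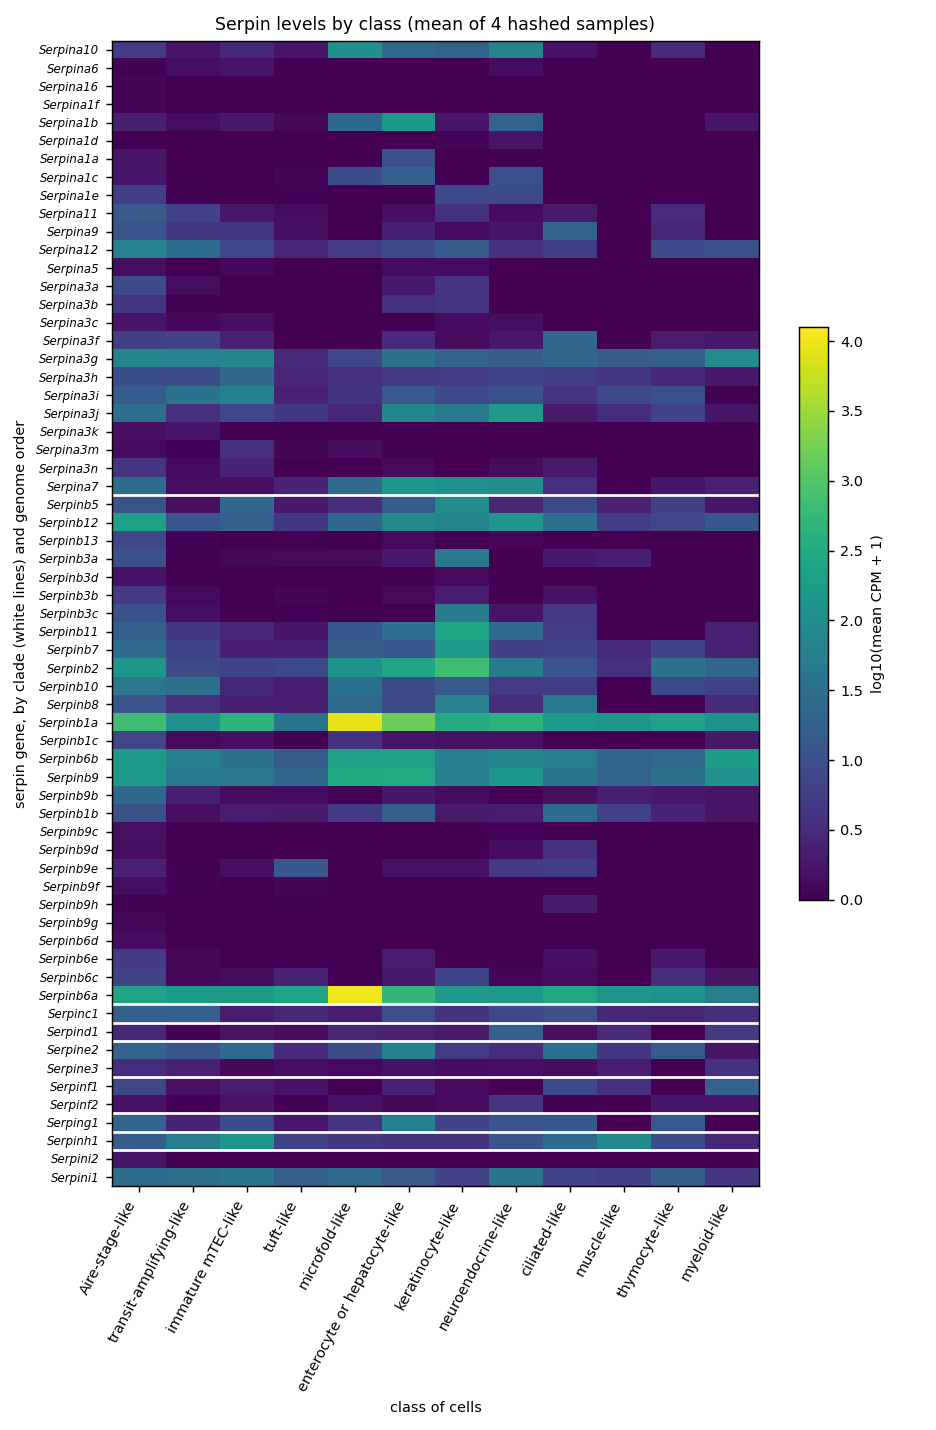
Level of the serpins, with 1 of the 64 not shown (rows, in genome order within each clade, white lines between clades) in the 12 classes (columns), as log10 of the mean CPM of 4 samples plus 1. The brightest cells are Serpinb6a and Serpinb1a in microfold-like cells, and the chromosome 1 genes from Serpinb5 to Serpinb8 include 7 that are brightest in keratinocyte-like cells.

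Microfold-like mTECs, which resemble the antigen-sampling cells over gut lymphoid follicles, were set apart by 2 clade b serpins of chromosome 13. Serpinb6a, which inhibits granule proteases such as cathepsin G, had 10475 and 9968 CPM in microfold-like cells of the spermidine samples, against 10617 and 9642 CPM in those of the PBS samples. Serpinb1a, an inhibitor of neutrophil elastase and related enzymes, had 8424 and 7865 CPM in the spermidine samples, against 8680 and 8730 CPM in the PBS samples. All 4 samples were high for both genes, and no sample of another class came near. The next class for Serpinb6a was enterocyte- or hepatocyte-like at 509 CPM, and its Aire-stage and tuft-like levels were of a similar order to each other, with 242 ± 7.41 CPM in tuft-like cells (SD, n = 4). Serpinb1a was broader: enterocyte- or hepatocyte-like cells had 1458 ± 320 CPM, Aire-stage cells 687 ± 184 CPM (SD, n = 4 each) and immature mTEC-like cells 452 CPM. Serpinb6a was among the leading genes of the microfold cluster although serpins were kept out of the genes used for clustering. The third microfold-highest serpin was Serpina10, the protein Z-dependent inhibitor of clotting, at 113 ± 29.3 CPM against 69.8 ± 43.5 CPM in neuroendocrine-like cells (SD, n = 4 each), and those ranges overlapped.

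The promoter of Serpinb6a is shown because it is the serpin with the highest class level, and microfold cells depend on the ETS factor SpiB, one of the markers of that class. The 120 bases before its start, from RefSeq (GRCm38.p6, minus strand, chr13:34002795-34002914), contain no match to AGGAAGT, a sequence that SpiB and PU.1 can bind, on either strand, nor does the rest of its 300-base window:
Serpinb6a: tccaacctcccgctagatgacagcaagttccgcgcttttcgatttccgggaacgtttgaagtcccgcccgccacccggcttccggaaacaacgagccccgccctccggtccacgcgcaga
That motif was present in 9.35% of 32851 RefSeq promoter windows (250 bases before to 50 after each start) and in the windows of 5 serpins, Serpina16, Serpinb11, Serpinb1c, Serpinb3a and Serpinb7. RefSeq windows were found for 54 of the 64 serpins. The motifs were chosen after expression values were known, and a match or its lack is a description of these letters. Shorter sites of SpiB or PU.1 were not searched for.

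Free RNA in droplets can give UMIs to cells that do not express a gene, so detection was compared at equal depth, in cells thinned to 5000 UMIs. Serpinb6a was detected in 99.5% of 187 microfold-like cells (186 cells, exact 95% interval 97.1% to 99.99%) and in 38.8% of 80 thymocyte-like cells (31 cells, 28.1% to 50.3%). Intervals cover counting error only. The thymocyte-like share serves as a reference only. It cannot be read as a floor of free RNA, since the 11.1% in myeloid-like cells lay below it. Keratinocyte-like cells, at 38.7%, did not exceed it, whereas tuft-like cells had 66.1% and Aire-stage cells 56.0%. How much of each share comes from free RNA was not tested. For Serpinb1a the microfold-like share was 99.5% and the thymocyte-like share 25.0% (16.0% to 35.9%). Enterocyte- or hepatocyte-like cells had 89.7% and Aire-stage cells 61.3%, both above that reference share, but the 14.7% of tuft-like cells was below it.

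Keratinocyte-like mTECs, which run the cornification programme of skin, were the highest class for 5 serpins over 50 CPM, all of them clade b genes of the chromosome 1 cluster. Serpinb2, an inhibitor of urokinase that is also used in stressed skin and macrophages, had 444 and 816 CPM in keratinocyte-like cells of the spermidine samples, against 521 and 967 CPM in those of the PBS samples. Replicate 2 was higher than replicate 1 in each treatment, and the groups overlapped. Serpinb11 had 195 and 406 CPM in the spermidine samples, against 165 and 263 CPM in the PBS samples. Serpinb7, whose human counterpart is mutated in an inherited keratoderma, had 224 and 112 CPM in the spermidine samples, against 129 and 173 CPM in the PBS samples. For both genes the groups overlapped, and every keratinocyte-like value lay above every other class. Serpinb5 (maspin, a serpin that does not inhibit proteases) averaged 104 ± 17.9 CPM, against 21.3 CPM in the next class, immature mTEC-like cells. Serpinb8, whose human counterpart inhibits furin, averaged 64.9 ± 12.5 CPM (SD, n = 4 each), against 25.4 CPM in microfold-like cells. Next-highest values were 269 ± 127 CPM for Serpinb2 in enterocyte- or hepatocyte-like cells, 30.3 CPM for Serpinb11 there and 26.5 CPM for Serpinb7 in Aire-stage cells. At 5000 UMIs, Serpinb2 was detected in 60.9% of 230 keratinocyte-like cells and 7.5% of thymocyte-like cells, and Serpinb11 in 34.3% and in 0 of 80. A count of 0 allows 3 counts of 80, a share of up to 3.75%, and the exact 95% upper limit is 4.51%.

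These 5 promoters are shown together because the genes share a class and a cluster. Each window contained a match to TGANTCA, where N is any base, a loose pattern for sites of AP-1 factors of the Jun and Fos families. The match shown was TGAGTCA in Serpinb7 and Serpinb8 and TGAATCA in Serpinb2, Serpinb11 and Serpinb5. It is in capitals in these 120-base stretches of RefSeq (GRCm38.p6, plus strand):
Serpinb2: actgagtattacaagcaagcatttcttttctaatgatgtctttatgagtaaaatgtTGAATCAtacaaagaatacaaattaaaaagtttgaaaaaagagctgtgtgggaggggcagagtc
Serpinb11: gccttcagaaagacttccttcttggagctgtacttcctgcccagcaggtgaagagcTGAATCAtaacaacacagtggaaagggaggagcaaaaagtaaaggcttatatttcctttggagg
Serpinb7: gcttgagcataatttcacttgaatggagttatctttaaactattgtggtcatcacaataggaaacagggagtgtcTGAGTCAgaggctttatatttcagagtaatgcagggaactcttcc
Serpinb5: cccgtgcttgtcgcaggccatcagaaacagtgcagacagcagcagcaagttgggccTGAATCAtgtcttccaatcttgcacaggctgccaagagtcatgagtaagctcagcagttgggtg
Serpinb8: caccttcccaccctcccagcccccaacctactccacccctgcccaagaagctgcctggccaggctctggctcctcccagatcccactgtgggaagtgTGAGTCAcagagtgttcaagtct
The stretches lie at chr1:107511273-107511392, chr1:107362182-107362301, chr1:107422569-107422688, chr1:106860979-106861098 and chr1:107589886-107590005, in the order shown. Across all windows the motif was found in 7.81%, and 8.97% of 27025 genes had a window with it. Among serpins it was in 7 of the 26 clade b genes with a window, these 5 plus Serpinb10 and Serpinb12, and in Serpina1a, Serpina1b, Serpina1c and Serpina1d. Serpinb10 and Serpinb12 were highest in Aire-stage cells, so the letters were not limited to the keratinocyte-highest genes of the cluster. Nor were they in all of those: Serpinb3a and Serpinb3c, highest in keratinocyte-like cells but under 50 CPM, had no match in their windows.

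The remaining genes of the chromosome 1 cluster divided between the same classes. Serpinb3a and Serpinb3c, mouse relatives of the human squamous cell carcinoma antigens, were also highest in keratinocyte-like cells, at 41.0 and 49.2 CPM, just under the limit of 50. Unlike the 5 above, 24.7% of Serpinb3a UMIs and 20.2% of Serpinb3c UMIs lay in 1 cell. Serpinb12, Serpinb13, Serpinb3d, Serpinb3b and Serpinb10 were highest in Aire-stage cells. Serpinb2 and Serpinb10 overlap in the annotation, and 18.7% of the 90-base stretches at the 3' ends of Serpinb2 transcripts also occur in Serpinb10, so their counts are uncertain where reads fall there.

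**Figure D2:**
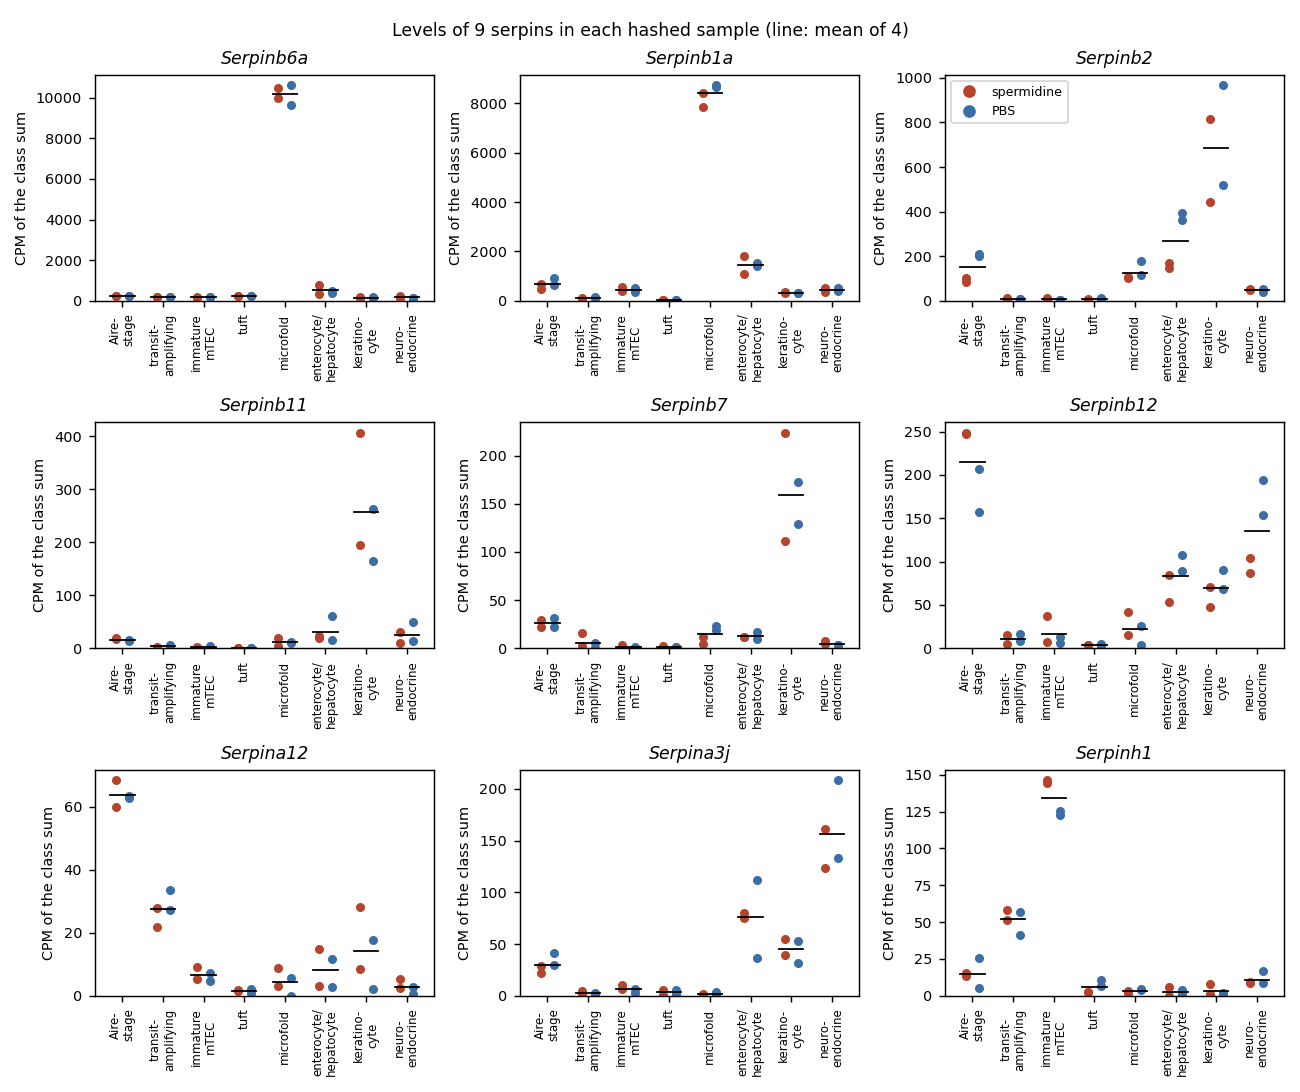
CPM of the class sum (vertical axis) for 9 serpins in the 8 classes with at least 20 cells in every sample (horizontal axis), with spermidine samples in red, PBS samples in blue and a line at the mean of 4. Serpinb6a and Serpinb1a stand apart in microfold-like cells, Serpinb2, Serpinb11 and Serpinb7 in keratinocyte-like cells, Serpina12 in Aire-stage cells, Serpina3j in neuroendocrine-like cells and Serpinh1 in immature mTEC-like cells. Serpinb12 is highest in Aire-stage cells on average, but its lowest Aire-stage value (157 CPM) lies below the highest neuroendocrine-like one (194 CPM).

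Enterocyte- or hepatocyte-like cells were the highest class for 6 serpins over 50 CPM, none of which stood clear of the other classes. Serpinb9, the inhibitor of granzyme B, had 251 and 327 CPM there in the spermidine samples, against 391 and 319 CPM in the PBS samples, while microfold-like cells had 314 ± 73.4 CPM and Aire-stage cells 186 ± 37.7 CPM (SD, n = 4 each). Serpinb6b was similar, at 218 ± 66.5 CPM in enterocyte- or hepatocyte-like, 206 ± 33.2 CPM in microfold-like and 168 ± 19.4 CPM in Aire-stage cells (SD, n = 4 each). For both genes these 3 classes could not be put in order within their spread. Serpina7, thyroxine-binding globulin, averaged 154 ± 127 CPM in enterocyte- or hepatocyte-like, 129 ± 73.0 CPM in keratinocyte-like and 107 ± 50.3 CPM in neuroendocrine-like cells (SD, n = 4 each), with single samples from 50.1 to 339 CPM in the first of these. The other 3 rested on few cells. Serpina1b, a gene of alpha-1-antitrypsin, had 14.8 and 425 CPM in the spermidine samples, against 154 and 19.2 CPM in the PBS samples, and the 424 UMIs of spermidine replicate 2 all came from 1 cell, which held 50.8% of the gene's UMIs in all. Serpine2, an inhibitor of thrombin and plasminogen activators, had 115 and 36.1 CPM in the spermidine samples, against 7.77 and 94.4 CPM in the PBS samples. Serping1, the inhibitor of the first complement protease complex, had 20.1 and 3.01 CPM in the spermidine samples, against 46.6 and 166 CPM in the PBS samples, and 106 of the 121 UMIs of PBS replicate 2 came from 1 cell. The place of these 3 depended on the settings. With serpins kept among the clustering genes Serpine2 averaged 6.65 CPM, against 63.3 CPM without them, and Serping1 23.8 CPM, against 58.8 CPM. With each cell's count capped at 10, Serpina1b averaged 27.8 CPM, against 153 CPM uncapped. The classic liver serpins were low or uneven even in the class named for hepatocyte markers: Serpina1a and Serpina1c peaked there at 9.02 and 15.9 CPM (35.9% and 15.3% of the stretches at their 3' ends occur in the other, so their counts are uncertain), and Serpinc1, antithrombin, had 9.01 CPM there and 18.1 ± 3.95 CPM (SD, n = 4) in Aire-stage cells.

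Serpina7 is shown as the clade a gene with a broad pattern outside the chromosome 12 cluster. In the 120 bases before its start in RefSeq (GRCm38.p6, minus strand, chrX:139085237-139085356), the capitals mark GTTAAT, the half-site of the liver and gut factor HNF1:
Serpina7: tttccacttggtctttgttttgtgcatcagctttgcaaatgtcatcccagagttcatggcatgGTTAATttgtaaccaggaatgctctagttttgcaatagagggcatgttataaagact
This half-site occurred in 7.10% of windows and in those of 11 serpins, among them the neighbouring antitrypsin genes Serpina1a to Serpina1e. Matches to the 3 motifs did not overlap each other in serpin windows.

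Other clade a serpins over 50 CPM were spread over 4 classes. Serpina3j, of the antichymotrypsin-like group, had 161 and 124 CPM in neuroendocrine-like cells of the spermidine samples, against 133 and 208 CPM in those of the PBS samples, and 76.1 CPM in the next class. All neuroendocrine-like samples were above all others and the treatments overlapped. Serpina3g, which inhibits cathepsins in lymphocytes, was at nearly equal levels of 75.8 ± 12.7 CPM in immature mTEC-like, 72.5 ± 6.60 CPM in Aire-stage (SD, n = 4 each) and 64.3 CPM in transit-amplifying-like cells. It had 93.4 CPM in myeloid-like cells, which were too few to be counted among the ranked classes. Serpina3i averaged 57.7 ± 6.37 CPM (SD, n = 4) in immature mTEC-like cells and 33.1 CPM in transit-amplifying-like cells. Counts of Serpina3g and Serpina3i are uncertain, since 6.51% and 8.39% of the stretches at their 3' ends also occur in Serpina3h and Serpina3g.

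Serpinh1, the collagen chaperone of the endoplasmic reticulum, had its highest level among the ranked classes on the immature Ccl21a-expressing side. It had 146 and 144 CPM in immature mTEC-like cells of the spermidine samples, against 125 and 123 CPM in those of the PBS samples. The replicates were close together and both spermidine values were higher. The next ranked class was transit-amplifying-like cells, at 52.0 ± 7.61 CPM (SD, n = 4). Muscle-like cells, too few to be ranked, had more than that, at 91.9 ± 17.0 CPM (SD, n = 4). At 5000 UMIs Serpinh1 was detected in 43.9% of immature mTEC-like cells, 23.5% of 34 muscle-like cells and 2.5% of thymocyte-like cells. Serpini1, neuroserpin, an inhibitor of tissue plasminogen activator, peaked at 39.7 CPM in immature mTEC-like cells with 39.6 CPM in neuroendocrine-like cells, levels that differed by less than their spread.

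In Aire-stage cells, 2 serpins over 50 CPM had their highest level. Serpinb12, an inhibitor of trypsin-like proteases, had 247 and 249 CPM in the spermidine samples, against 157 and 207 CPM in the PBS samples. Both spermidine values were higher, and neuroendocrine-like cells, at 135 ± 48.5 CPM (SD, n = 4), overlapped with the lower PBS value. Serpina12 (vaspin, an adipokine that in humans inhibits kallikrein 7) had 68.3 and 60.0 CPM in the spermidine samples, against 63.4 and 62.6 CPM in the PBS samples. It was even between samples and treatments, and the next class, transit-amplifying-like cells, had 27.6 CPM. At 5000 UMIs, Serpinb12 was found in 25.6% of 1199 Aire-stage cells (exact 95% interval 23.1% to 28.2%) and Serpina12 in 18.9% (16.8% to 21.3%), against 1.25% of thymocyte-like cells for each (0.0316% to 6.77%).

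A further 27 of the 44 serpins under 50 CPM were also highest in Aire-stage cells, and 23 serpins of any level had over 70% of their UMIs there. Several of these rest on few UMIs. Among the 47 serpins with at least 50 UMIs, 15 (31.9%) had over 70% of them in Aire-stage cells, against 10.7% of the 21681 genes with as many, and Aire-stage cells held 31.95% of all gene UMIs. Serpinb13, an inhibitor of cysteine cathepsins known from skin, had 98.0% of its 197 UMIs in Aire-stage cells, and Serpinb9b had 94.4% of 602. In clade a the low members with most UMIs were Serpina3h at 21.8 CPM in immature mTEC-like cells, Serpina11 at 13.0 CPM in Aire-stage cells and Serpina9, a gene of germinal-centre B cells, at 10.8 CPM in Aire-stage cells, with 19.5 CPM in the few ciliated-like cells. GENCODE M21 lists Serpina3h as a transcribed pseudogene, and 39.7% of the stretches at the 3' ends of Serpina11 also occur in Gm28577. In clade b they were Serpinb10 at 40.7 CPM and Serpinb9b at 23.2 CPM in Aire-stage cells and Serpinb3a, given above. Serpinf1, an anti-angiogenic factor that does not inhibit proteases, peaked at 6.74 CPM in Aire-stage cells with 18.8 CPM in the few myeloid-like cells, and Serpind1, heparin cofactor II, peaked at 17.2 CPM in neuroendocrine-like cells. Serpinb9e was the only low serpin above 10 CPM with its peak in tuft-like cells, at 12.2 CPM, with 39.8 CPM in 1 of 3 tuft-like clusters. The share of its 3' ends that also occurs in Serpinb9f was 20.2%, and for Serpinb9f 89.5% occurs in Gm11397, so neither count can be given to its gene with certainty.

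The Aire-stage class was not uniform for serpins. It was made of a cluster of 682 cells, another of 571 cells, and a small one of 85 cells led by Klk1b kallikrein genes. Of the 32 serpins at 10 CPM or more in any of the 3, 15 were highest in the cluster of 682 cells, 8 in that of 571 cells and 9 in that of 85 cells. In the order just given, Serpinb12 had 320, 76.4 and 77.2 CPM, Serpina12 84.1, 36.3 and 23.8 CPM, and Serpinb13 11.3, 0.968 and 0 CPM. Serpinb2 had 57.6, 235 and 365 CPM, and Serpinb1a 341, 1101 and 1624 CPM. Clusters were cut from 2000 variable genes, serpins left out, so these values describe the split and are no test. The cluster of 682 cells made up 57.0% and 53.2% of Aire-stage cells in the spermidine samples, against 44.7% and 44.0% in the PBS samples.

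Many serpins were found in few cells. Of the 64 serpins, 35 had a UMI in fewer than 100 of 4709 cells and 16 in fewer than 20, and 23 had at least 20% of their UMIs in 1 cell. A gene with 5 or fewer UMIs must reach that share. Among the 47 serpins with at least 50 UMIs, 9 (19.1%) reached it, against 4.82% of the 21681 genes with as many. Rare serpins could still be abundant in the cells that had them. In all, 48 serpins had a cell with 10 or more UMIs, and 20 of these were found in fewer than 100 cells. Serpini2, pancpin, a pancreatic serpin, was the extreme, with all 15 UMIs in 1 Aire-stage cell. Serpina1a had 62.1% of 58 UMIs in 1 cell and Serpina3a 56.7% of 210. At the other end, the top cell held 1.44% of the 52939 Serpinb6a UMIs, though that cell had 763 of them. In clade a the median share of the top cell was 17.8%, in clade b 7.55%, with UMI totals not matched between clades. A serpin at 10 or more UMIs, those used class-wide included, was seen in 761 of 1338 Aire-stage cells, 215 of 221 microfold-like cells and 138 of 247 enterocyte- or hepatocyte-like cells. For the 44 serpins under 50 CPM alone, this was 113 Aire-stage cells (8.45%) and 4 of 55 ciliated-like cells (7.27%). It was 7 of 299 neuroendocrine-like cells (2.34%), 12 of 533 transit-amplifying-like cells (2.25%) and 1 microfold-like cell (0.452%). Depth was not matched between classes here, and 27 of these 44 serpins were highest in Aire-stage cells.

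**Figure D3:**
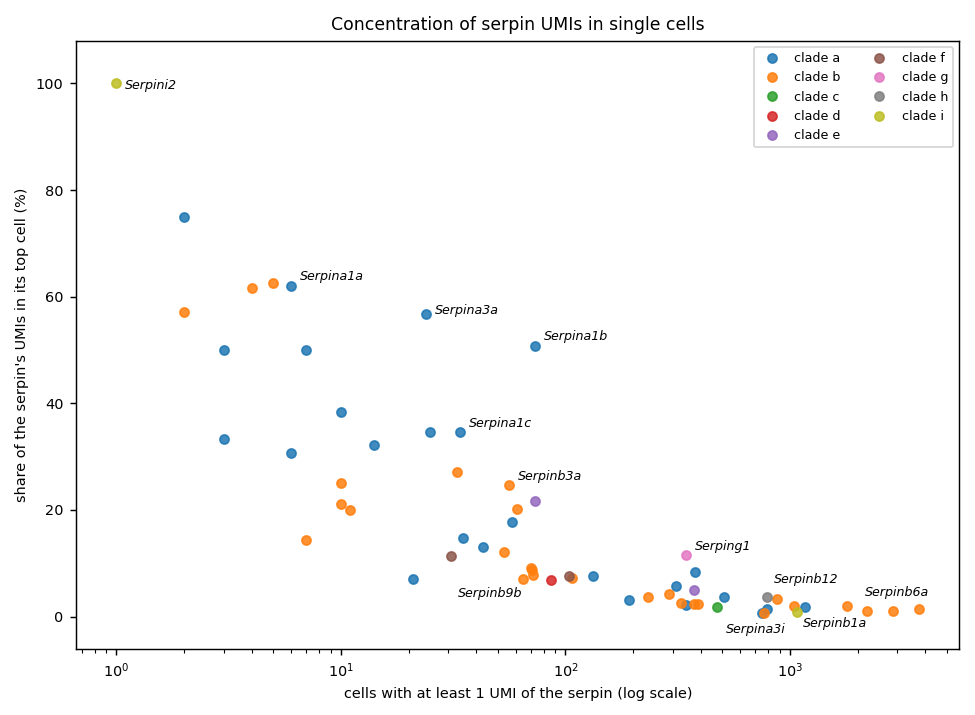
Share of each serpin's UMIs found in its top cell (vertical axis, percent) against the number of cells with at least 1 UMI of it (horizontal axis, log scale), with 1 point per serpin coloured by clade and 1 serpin not shown. Serpini2 sits at 1 cell and 100%, Serpina1b at 73 cells and 50.8%, and Serpinb6a at 3765 cells and 1.44%.

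Pairs of stray serpins in the same Aire-stage cell are given as counts, for pairs picked after their values were seen. Of 122 cells with Serpina9, 29 also had Serpina11 (23.8%, against 6.95% of all Aire-stage cells). Of 29 cells with Serpina1e, 9 had Serpina11 (31.0%). In clade b, 14 of 90 cells with Serpinb11 had Serpinb3c (15.6%, against 2.99%), and 16 of 56 with Serpinb9b had Serpinb1b (28.6%, against 10.2%). Members of each pair given lie on the same chromosome, but no pairs across chromosomes are given beside them. Whether a shared chromosome plays a part was not tested. Serpina9 and Serpina11 were both highest in the Aire-stage cluster of 682 cells. Deeper cells raise both members of a pair, and depth was not matched here.

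The number of different serpins per cell was compared between treatments at 5000 UMIs. Aire-stage cells had 4.12 and 4.12 serpins per cell in the spermidine samples, against 4.00 and 4.27 in the PBS samples, so the groups overlapped (means 4.12 ± 0.000902 and 4.14 ± 0.187, SD, n = 2 each, exact two-sided permutation p = 1). The difference was -0.0165 and it was 0.382 without thinning, in the other direction, while 0.116 was the difference without PBS replicate 2. With 2 samples against 2 the smallest p is 0.3333. Enterocyte- or hepatocyte-like cells had 4.19 and 4.10 in the spermidine samples, against 4.62 and 4.68 in the PBS samples, a gap larger than the spread within each group (exact permutation p = 0.3333). Tuft-like cells had the fewest of the epithelial classes with 20 cells per sample, at 1.19 ± 0.0267 with spermidine and 1.26 ± 0.0143 with PBS (SD, n = 2 each).

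**Figure D4:**
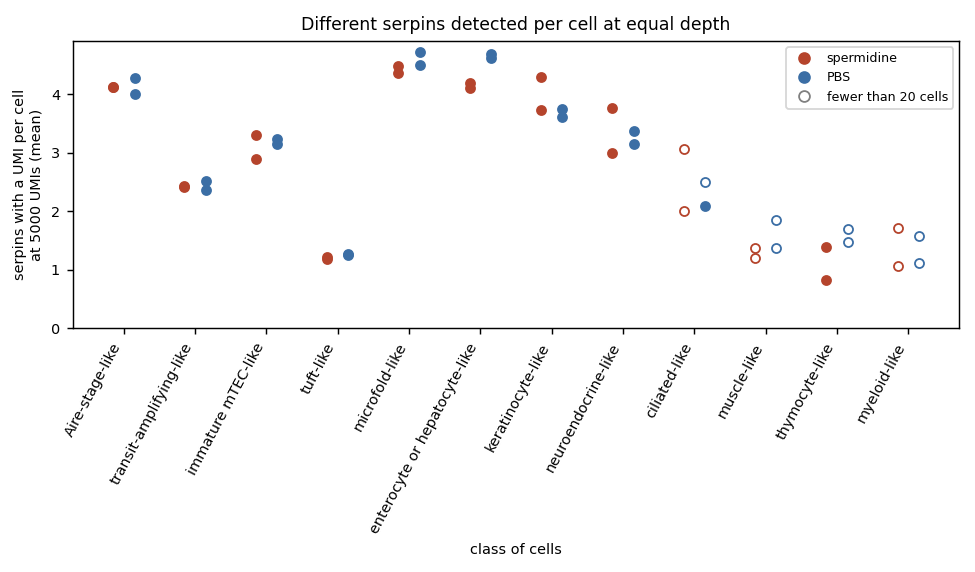
Mean number of different serpins with a UMI per cell after thinning to 5000 UMIs (vertical axis), by class (horizontal axis), with 1 point per sample, spermidine in red and PBS in blue, open where a sample has fewer than 20 cells. Aire-stage samples lie between 4.00 and 4.27 and overlap, and tuft-like samples lie between 1.17 and 1.27.

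Genes outside the family with the pattern most like the 5 highest serpins were ranked by Pearson correlation of log2(CPM + 1) over 32 class-by-sample sums. These sums share libraries and depth, so r is a description. For Serpinb6a they were Ccr1 (r = 0.962), Gm50069 (0.949) and Gm37800 (0.948). For Serpinb1a they were Plxnd1 (0.915), Rbpj (0.909) and Hook1 (0.903), and for Serpinb9 Rbpj (0.932), Pnp (0.932) and Slc6a20a (0.929). Serpinb2 was most like Rassf3 (0.937), Dgat2 (0.936) and Tapbp (0.936), and Serpinb11 was most like Mocs2 (0.905), Arl4a (0.901) and Asprv1 (0.893), an aspartic protease of the cornified layer.

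Proteases and receptors that serpins act on were followed in 10 lists of 59 genes. Tissue kallikreins, serine proteases of skin and glands, had 4 of 7 members at 50 CPM or more. Klk7, the skin kallikrein, had 626 ± 83.3 CPM in keratinocyte-like cells, where Klk6 and Klk8 also peaked at 192 and 114 CPM, and Klk1 had 1205 ± 492 CPM in neuroendocrine-like cells (SD, n = 4 each). Lysosomal cathepsins had 5 of 6, with Ctsh at 1492 ± 142 CPM in microfold-like cells and Ctsl at 581 CPM in immature mTEC-like cells. Membrane serine proteases had 4 of 7, digestive proteases 2 of 6 (Prss2 at 644 CPM in neuroendocrine-like cells), serpin receptors 1 of 4, and neutrophil and mast cell proteases 1 of 7, which was Elane, neutrophil elastase, at 50.01 ± 92.5 CPM (SD, n = 4) in transit-amplifying-like cells. Its SD exceeds its mean, and in all mTEC-like cells spermidine replicate 2 held 722 of its UMIs, against 62 in spermidine replicate 1 and 23 and 10 in the PBS samples. None of the plasminogen activator and plasmin genes (0 of 4), granzymes and perforin (0 of 6), coagulation proteases (0 of 8) or complement initiators (0 of 4) reached 50 CPM in a ranked class.

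Spermidine was compared with PBS on sums over all mTEC-like cells with the quasi-likelihood test of edgeR and Benjamini-Hochberg adjustment at 0.05 over all genes. None of the 47 serpins tested was called, and 0% of the 22528 genes tested were called. At an unadjusted p under 0.05 there were 11 serpins among 4075 genes. Log2 fold changes of spermidine over PBS were above 0 for 30 serpins and below 0 for 17, with a median of 0.19 for serpins and 0.00 for all genes tested. The groups did not overlap for 23 serpins, against 52.1% of all genes tested, which is near the background. DESeq2 called 3 serpins, Serpinb12 and Serpinb10 higher and Serpinb2 lower with spermidine, among 799 genes (4.03%).

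The serpins with the smallest p on the higher side were Serpinb10, which GENCODE M21 lists as a polymorphic pseudogene, Serpina1e and Serpinb13. Serpinb10 had 29.3 and 26.9 normalized CPM in all mTEC-like cells of the spermidine samples, against 15.9 and 17.7 in those of the PBS samples (log2 fold change 0.74, SE 0.10, adjusted p = 0.123). Serpinb13 had 4.22 and 2.83 in the spermidine samples, against 1.04 and 1.17 in the PBS samples (1.68, SE 0.34, adjusted p = 0.137), and Serpina1e had 4.38 and 3.23 against 1.21 and 1.23 (1.64, SE 0.30, adjusted p = 0.128). For each of them both spermidine samples were above both PBS samples. Few cells carried 2 of these genes: Serpina1e had 213 UMIs in 43 cells, with 51.2% of them in 5 cells. Serpinb13 had 197 UMIs in 70 cells, with 32.5% of them in 5 cells. Serpinb12, which DESeq2 called, had 117 and 109 in the spermidine samples, against 61.8 and 91.1 in the PBS samples (0.57, SE 0.18, edgeR adjusted p = 0.214). All 4 had most of their UMIs in Aire-stage cells, which made up more of both spermidine samples, and in sums over all mTEC-like cells more cells of a class and more RNA per cell cannot be told apart. Within Aire-stage cells the Serpinb10 values overlapped, at 47.0 and 40.0 in the spermidine samples, against 40.4 and 36.3 in the PBS samples. For the other 3, both spermidine values in Aire-stage cells were higher, with log2 fold changes of 1.81 for Serpina1e, 1.09 for Serpinb13 and 0.43 for Serpinb12, none of them called. Aire-stage cells held 71.8%, 98.0% and 77.4% of their UMIs, in that order. These values thus largely repeat the sums from which the genes were picked and are no separate support.

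On the lower side, Serpinb2 had 66.1 and 91.7 normalized CPM in the spermidine samples, against 116 and 143 in the PBS samples (log2 fold change -0.72, SE 0.18, adjusted p = 0.166). Serpina7 (-0.50, SE 0.19, adjusted p = 0.261) and Serpinb6a (-0.18, SE 0.07, adjusted p = 0.285) followed. Keratinocyte-like cells held 32.2% of Serpinb2 UMIs and made up 4.22% and 4.17% of the spermidine samples, against 7.57% and 6.55% of the PBS samples. Aire-stage cells, which held 43.7%, made up more of both spermidine samples. Here too, fewer cells of a class and less RNA per cell cannot be told apart. Serpinb6a had 604 and 605 in the spermidine samples, against 662 and 704 in the PBS samples. Within microfold-like cells, which carry most of its UMIs, the log2 fold change of Serpinb6a was -0.00 and that of Serpinb1a -0.11. In that fit no serpin of 15 was called and 0% of 8584 genes were.

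In Aire-stage cells alone none of 43 serpins was called by edgeR, and 0% of 18587 genes were. At an unadjusted p under 0.05 there were 8 serpins among 1280 genes, and DESeq2 called 1 serpin, Serpinb2, among 86 genes (0.465%). Log2 fold changes were above 0 for 22 serpins and below 0 for 21, and the groups did not overlap for 18 serpins, against 37.3% of genes. The smallest p was that of Serpinb2, with 86.8 and 102 normalized CPM in the spermidine samples, against 211 and 203 in the PBS samples (log2 fold change -1.14, SE 0.10, edgeR adjusted p = 0.428). Replicates were close together and each spermidine value was below each PBS value. With each cell's count capped at 10 the log2 fold change was -0.57.

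Because the Aire-stage clusters differ in Serpinb2 and in their shares, its level was also read within each of them. In the cluster of 571 cells Serpinb2 had 156 and 202 CPM in the spermidine samples, against 339 and 284 CPM in the PBS samples. In that of 682 cells it had 44.1 and 49.9 CPM in the spermidine samples, against 68.5 and 89.96 CPM in the PBS samples. In the Klk1b cluster of 85 cells it had 294 and 105 CPM in the spermidine samples, against 528 and 468 CPM in the PBS samples, though it held only 19 and 19 cells with spermidine, against 21 and 26 with PBS. The groups did not overlap in any of the 3 clusters, a reading chosen after the class value was seen. The clusters are parts of the class sum in which Serpinb2 had the smallest p, so this is no separate support. The share of all genes without overlap was 37.3% in the class and was not determined within the clusters. Serpinb2 was also lower in enterocyte- or hepatocyte-like cells, at 150 and 175 normalized CPM with spermidine, against 372 and 418 with PBS (log2 fold change -1.28, SE 0.21, adjusted p = 0.537), and overlapped in keratinocyte-like cells, its highest class (-0.21, SE 0.37, adjusted p = 0.974). Whether these effects differ between the single classes was not tested.

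Other Aire-stage values on the lower side were Serpinb1b (log2 fold change -0.96, SE 0.26, adjusted p = 0.659), with 6.60 and 6.47 normalized CPM in the spermidine samples, against 14.6 and 10.8 in the PBS samples, and Serpina7 (-1.44, SE 0.42, adjusted p = 0.673), with 12.7 and 17.4 against 55.8 and 25.5, and a log2 fold change of -0.77 without PBS replicate 1. On the higher side were Serpina11 (0.71, SE 0.20, adjusted p = 0.664), Serpinb13 (1.09, SE 0.33, adjusted p = 0.673) and Serpina1e (1.81, SE 0.58, adjusted p = 0.682). The log2 fold change of Serpina11 was 0.14 with the margin rule for hashtags and 0.33 with counts capped at 10. It was 0.44 with serpins kept in clustering and 0.86 with a mitochondrial limit of 10%. Serpina1e had 9.89 and 4.93 in the spermidine samples, against 2.92 and 1.33 in the PBS samples, and its log2 fold change was 1.21 without spermidine replicate 1, 2.47 without PBS replicate 1 and 1.04 with the margin rule for hashtags. Serpinb13 had 10.2 and 7.39 in the spermidine samples, against 4.67 and 3.61 in the PBS samples. It was, like Serpina11, highest in the cluster of 682 cells, whose share of Aire-stage cells was higher in both spermidine samples, and the part of that share in these values was not tested.

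In mimetic cells together none of 34 serpins was called, and 0% of 17738 genes were. At an unadjusted p under 0.05 edgeR had 6 serpins among 1434 genes, DESeq2 called 1 serpin, Serpinb3a, among 39 genes (0.231%), and the groups did not overlap for 11 serpins, against 38.9% of genes. Serpinb3a had 1.34 and 0.304 normalized CPM in the spermidine samples, against 10.5 and 7.70 in the PBS samples (log2 fold change -3.35, SE 0.48, edgeR adjusted p = 0.338). Few cells carried these UMIs. In keratinocyte-like cells, 127 of 140 Serpinb3a UMIs of PBS replicate 1 came from 1 cell, and 41 of 59 UMIs of PBS replicate 2 came from another. The log2 fold change of Serpinb3a was -4.86 without spermidine replicate 1 and -1.70 with counts capped at 10. Serping1 (-1.27, SE 0.41, adjusted p = 0.543) and Serpinb12 (-0.38, SE 0.13, adjusted p = 0.583) were next on that side, and the log2 fold change of Serping1 was -0.66 without PBS replicate 2 and 0.21 at Leiden resolution 0.5. Serpinb12 had 31.3 and 38.9 in the spermidine samples, against 42.2 and 48.9 in the PBS samples. On the higher side were Serpinb10 (0.69, SE 0.21, adjusted p = 0.512) and Serpinb6b (0.16, SE 0.07, adjusted p = 0.631).

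**Figure D5:**
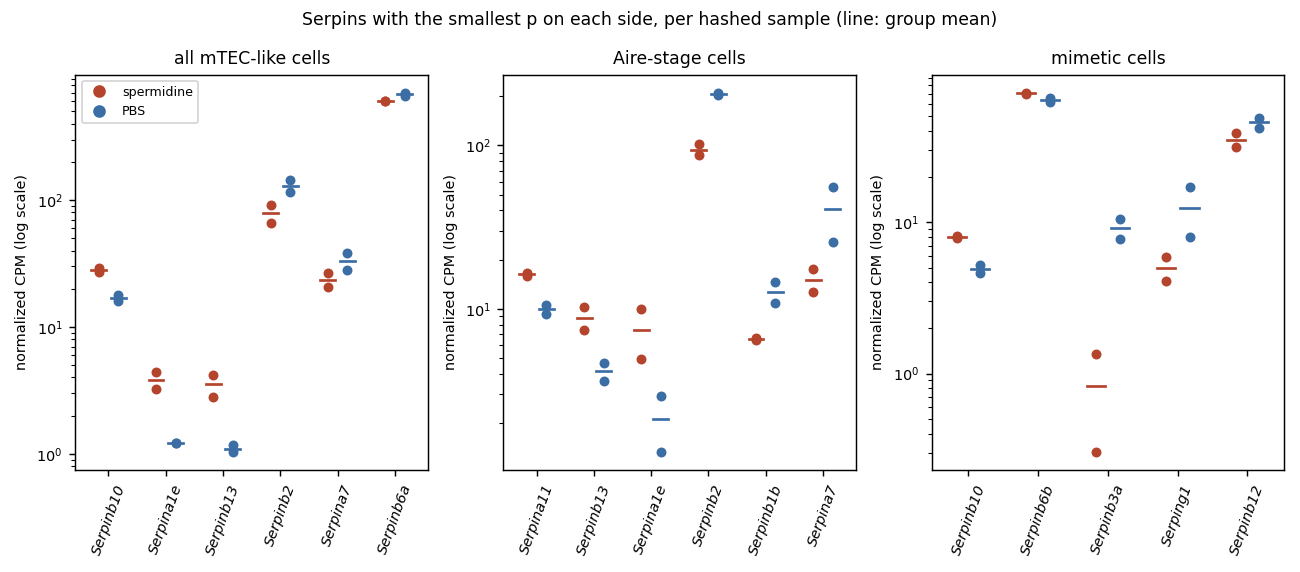
Normalized CPM (vertical axes, log scale) of the serpins of smallest p per direction that are named in the text for all mTEC-like, Aire-stage and mimetic cells, with 1 point per sample, spermidine in red left of PBS in blue, and a line at each group mean. In Aire-stage cells Serpinb2 lies at 86.8 and 102 with spermidine, against 211 and 203 with PBS, and no serpin shown passed an adjusted p of 0.05 in edgeR.

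In the other single classes edgeR called no serpin either. The genes called were 0% in enterocyte- or hepatocyte-like cells (21 serpins tested), 0.0102% in immature mTEC-like cells (13), 0% in keratinocyte-like cells (17), 0% in neuroendocrine-like cells (18), 0.0462% in transit-amplifying-like cells (19) and 0.087% in tuft-like cells (11). At an unadjusted p under 0.05, enterocyte- or hepatocyte-like cells had 3 of 21 serpins and 508 of 9815 genes. Immature mTEC-like cells had 1 of 13 serpins and 414 of 9787 genes, and keratinocyte-like cells 6 of 17 and 581 of 9885. Neuroendocrine-like cells had 2 of 18 serpins and 460 of 11328 genes, and transit-amplifying-like cells 2 of 19 and 1107 of 12979. Tuft-like cells had 1 of 11 serpins and 1549 of 13791 genes, and microfold-like cells 5 of 15 and 382 of 8584. Over the single classes DESeq2 called 2 serpins, Serpinb2 and Serping1, both lower with spermidine in enterocyte- or hepatocyte-like cells, where it called 23 genes (0.29%).

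Whether the treatment effect differed between Aire-stage and mimetic cells was tested as an interaction. No serpin of 47 was called, and 0% of 20790 genes were, with 12 serpins among 1292 genes at an unadjusted p under 0.05. Serpinb12 had the smallest p, with a difference of 0.83 on the log2 scale, Aire-stage minus mimetic (adjusted p = 0.55). Its values in Aire-stage cells were 249 and 248 normalized CPM with spermidine, against 158 and 210 with PBS, and in mimetic cells the spermidine values were the lower ones. DESeq2 called 1 serpin in this test, Serpinb3a, among 42 genes (0.292%). Of the partner genes, edgeR called none of 55 tested in all mTEC-like cells (27 above 0 and 28 below), none of 48 in Aire-stage cells and none of 42 in mimetic cells. At an unadjusted p under 0.05 there were 15, 6 and 10. The lowest adjusted p among all mTEC-like cells was that of Lrp2, the endocytic receptor megalin, at 0.123, with 7.19 and 6.29 normalized CPM in the spermidine samples, against 1.43 and 2.28 in the PBS samples.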

How the data were processed

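The deposited files held raw counts, 1 value for each gene or hashtag in each barcode, counted as UMIs by the authors. The file headers name Cell Ranger 7.1.0, and the submitters' processing notes name mm10, bcl2fastq and Seurat. The annotation and how multi-mapping reads were handled are not given in the sources used here. Of 12139 barcodes, 8534 had at least 1000 UMIs, 500 genes and under 15% mitochondrial UMIs. HTODemux of Seurat 5.3.0 on 4 hashtags assigned 4709 of these to 1 sample, called 1027 doublets and left 2798 without a sample. Doublets were called from hashtags only, and 897 assigned cells were doublets when 6 hashtags were read. The samples held between 17668782 and 25673749 UMIs. Cells were clustered in scanpy 1.11.5 without treatment labels and with serpins kept out of the 2000 variable genes (30 components, Leiden resolution 1). Names for the 18 clusters came from marker lists, by mean log difference. A cluster named Aire-stage with at least 9 of 12 division markers over 2-fold was put with the transit-amplifying class. This moved a cluster of 426 cells. These rules were settled after the clusters were seen. Counts were summed per sample and class and tested with edgeR 4.0.16 in R 4.3.3 (TMM, filterByExpr), with DESeq2 1.42.0 as an alternative. Exact permutation tests used scipy 1.17.1. Positions and gene types are from GENCODE M21 (GRCm38).

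Serpins reaching 50 CPM in a class with at least 20 cells per sample were named, the others by clade with up to 3 examples, and for treatment the 3 of smallest p per direction. Serpins outside that rule, such as those of the Aire-stage clusters and the co-detected pairs, were chosen after their values were seen. The family, the gene lists and the tests were chosen with earlier results of these data known. The alternatives were 6 hashtags, a margin rule for hashtags, other mitochondrial, Leiden and low-count settings, counts capped at 10 per cell, serpins kept in clustering, a replicate block and leaving out each sample. The test script was tested on simulated data. Values of 1 serpin are not reported here by name, though it is included in the counts and sums.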

Additional observations from a re-analysis of the deposited data

Results flagged for a closer look

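Outside the 4 hashed samples, 2299 of the 2798 cells without one of their hashtags carried HT6 or HT7, which the labels give to no sample. They passed the same cell filters, were set to no treatment and entered no value above.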

How the results depend on the processing

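The count of serpins called depended on the tool and the low-count filter, and the cause was not tested. In all mTEC-like cells the count was 0 in edgeR, 3 in DESeq2, 19 without the low-count filter (15 higher and 4 lower with spermidine, among 7.73% of genes called), 3 with counts capped at 10 per cell (4.28% of genes) and between 0 and 1 when samples were left out (Serpinb12 without PBS replicate 2, among 2.67% of genes). In Aire-stage cells it was 1 in DESeq2 and 1 without the filter, Serpinb2 both times, and 0 whichever sample was left out. In mimetic cells it was 1 in DESeq2 (0.231% of genes), 8 without the filter (2.36%) and between 0 and 1 when samples were left out (Serpina1b without spermidine replicate 1). Over single classes it was 2 in DESeq2 and 20 without the filter (between 0.545% and 2.31% of genes by class), and in the interaction 1 in DESeq2 (0.292%) and 2 without the filter (0.337%). Replicate numbers did not pair the samples (correlation of deviations 0.015, 0.023 and 0.015 in all mTEC-like, Aire-stage and mimetic cells), and a fit with the replicate block called 0 serpins in each. The difference in serpins per Aire-stage cell was -0.203 at 3000 UMIs, 0.382 without thinning, and between -0.149 and 0.116 with 1 sample left out. The 20 serpins at 50 CPM became 22 with 6 hashtags, 18 with serpins kept in clustering and 19 with capped counts, and the highest class of Serpina3g, Serpinb6b, Serpinb9 and Serpina7 changed with 6 hashtags. Of 252 alternative log2 fold changes of named serpins, 236 kept their call and direction, 15 passed the threshold and 1 reversed: Serping1 in mimetic cells had 0.21 at Leiden resolution 0.5. Of 60 alternative levels, 14 moved by more than the spread between samples and 10 by over 1.5-fold. Depth limits the comparison with thymocyte-like cells. Of these, 80 reached 5000 UMIs, so a count of 0 there allows 3 counts, or 3.75% (exact 95% upper limit 4.51%).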
